A study of Mus musculus with 16 samples.

Results

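The genes described here are the matrix metalloproteinases (MMPs), the ADAM and ADAMTS proteases, the ADAMTS-like proteins and the tissue inhibitors of metalloproteinases (TIMPs) of mouse brain endothelial cells (bECs). They were taken by name alone: every row of the count table whose symbol begins with Mmp, Adam, Adamts, Adamtsl or Timp followed by a digit, which gave 85 of 37003 genes. By role these were 17 secreted MMPs, 6 membrane-type MMPs, 34 ADAMs, 19 ADAMTS proteases, 5 ADAMTS-like proteins and 4 TIMPs. RNA was sequenced in 16 libraries of sorted bECs (DAPI-, CD45-, CD31+) from mice of 2 genotypes, CTRL and YT-iKO, with 4 libraries for each genotype and operation, prepared 72 hours after sham surgery or after 30 minutes of middle cerebral artery occlusion (MCAo) with reperfusion. All 4 groups carried Yap fl/fl and Taz fl/fl alleles and received tamoxifen before surgery. YT-iKO mice also carried the Pdgfb-iCreER-eGFP transgene, an inducible Cre under the endothelial Pdgfb promoter, which deletes Yap and Taz in endothelial cells, whereas CTRL littermates lacked the transgene, so that Cre and eGFP are also absent from CTRL. Each library was a pool of several mice. Both sexes were used, without the sex of each pool being given. The mice were adult, and their exact age is not given in the sources used here. For MCAo, the ischemic territory of the artery was dissected together with the matching area of the other hemisphere; whether the sides were pooled in a library is not stated in the sources used here.

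MMPs are zinc endopeptidases that cut collagens, laminins and other matrix proteins. They are made as inactive precursors, and membrane-type MMPs stay on the cell surface, where some of them activate secreted MMPs. ADAMs are membrane proteins that release the outer part of other surface proteins, among them Notch receptors, cytokines, growth factors and adhesion molecules. ADAMTS enzymes are secreted, bind matrix through thrombospondin repeats and cut proteoglycans such as versican and aggrecan, procollagens or von Willebrand factor, and ADAMTS-like proteins share these repeats but have no protease domain. TIMPs block the active site of these enzymes. In the brain vessel wall, where the basement membrane surrounds endothelial cells and pericytes, MMPs are best known for opening the blood-brain barrier after ischemia.

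Libraries held 11418262 to 23074547 counts, of which the 85 genes took 0.207% to 0.314%. The 6 endothelial markers (Pecam1, Cdh5, Cldn5, Kdr, Tek and Flt1) together reached 7631 to 15033 CPM, the unit of count scaled to library size. Yap1 was 112 ± 0.511 CPM (mean ± SD, n = 4) in CTRL sham and 49.3 ± 9.70 in YT-iKO sham, and Wwtr1, which encodes TAZ, 265 ± 9.66 and 72.1 ± 20.9. Both were lower in YT-iKO in edgeR's quasi-likelihood test averaged over operations (log2 fold change −1.18 ± 0.16 SE for Yap1 and −1.88 ± 0.20 for Wwtr1). The libraries differed in their level of background. Measured on 1564 autosomal olfactory, vomeronasal and taste receptor genes, which endothelial cells are not known to use, it was lowest in YT-iKO MCAo 4 (0.0419 CPM per kilobase of exon) and highest in YT-iKO sham 3, YT-iKO MCAo 2 and YT-iKO MCAo 3 (0.422, 0.413 and 0.362). In the last 3 libraries the endothelial markers were among the lowest, 7631, 7819 and 9617 CPM with TMM factors. Those factors were 1.36, 1.40 and 1.24 in these libraries, where factors from abundant genes were 1.01, 1.04 and 1.00. CPM values of these libraries are therefore lower on the TMM scale than on the other. Single results are therefore also given without those 3 libraries, which leaves only YT-iKO MCAo 1 and 4 in that group, and under scaling factors taken from abundant genes (mean of at least 10 CPM).

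To ask which of the genes were above background, the level of each, in CPM per kilobase of exon, was compared in every library with the 95th percentile of the receptor genes, which ran from 0.133 to 1.34 CPM per kilobase. In at least 8 of the 16 libraries, 37 of the 85 genes exceeded it. The same was true of 60.0% of the 30983 tested genes with an exon length and of 3.39% of the receptor genes themselves. All 4 TIMPs were among the 37, with 11 of 34 ADAMs, 8 of 19 ADAMTS proteases, 3 of 5 ADAMTS-like proteins, 4 of 6 membrane-type MMPs and 7 of 17 secreted MMPs. In all 16 libraries 16 genes were above background: Adam9, Adam10, Adam11, Adam15, Adam17, Adamts1, Adamts9, Adamts10, Adamtsl2, Adamtsl4, Timp2, Timp3, Mmp11, Mmp15, Mmp25 and Mmp28. A further 19 genes exceeded the limit in 1 to 7 libraries and 29 in no library. At the limit, Timp1, Mmp2 and Adam33 were above it in exactly 8 libraries, and Adam18 in 7. The count fell to 18 with the 99th percentile in place of the 95th, and was 57 when CPM was used without exon length.

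**Figure D1:**
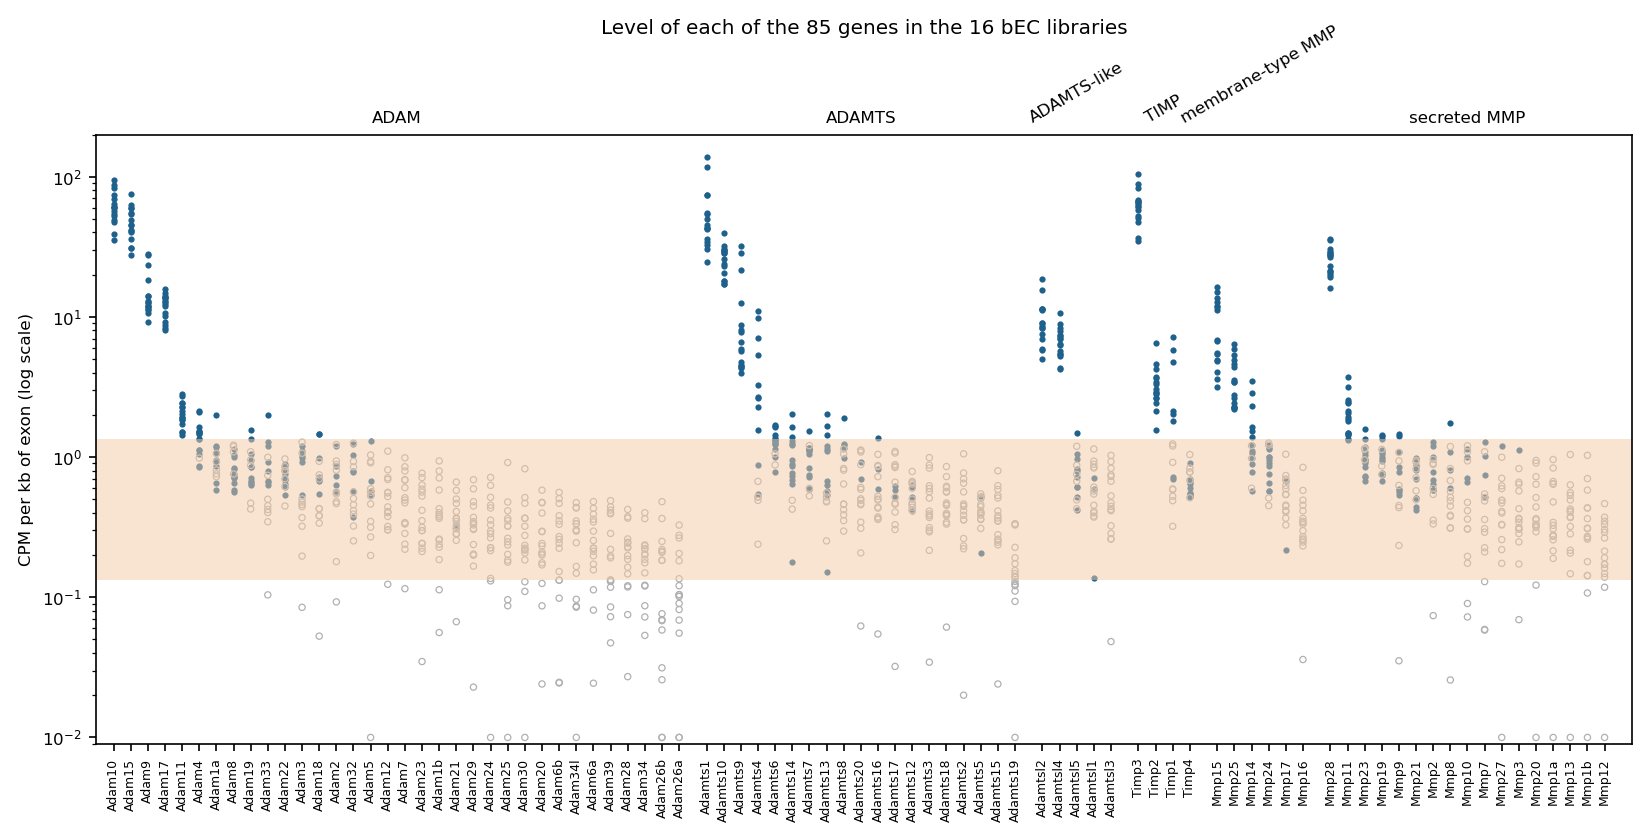
Level of each of the 85 genes in each of the 16 libraries, in CPM per kilobase of exon on a log axis, grouped by role and ordered by mean. Blue points exceed the receptor-gene limit of their own library, open grey points do not (values under 0.01 are drawn at 0.01), and the band spans the limits of the 16 libraries, 0.133 to 1.34. Levels are concentrated in few genes, with Timp3, Adam10, Adamts1 and Adam15 at the top.

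Few genes made up most of the level. By mean CPM per kilobase, Timp3 (63.0), Adam10 (61.8), Adamts1 (56.0) and Adam15 (47.2) came first and held 57.5% of the sum over the 85 genes, and 9 genes held 80.0%. The ranges of these 4 over the libraries overlapped (34.5 to 104 for Timp3, 35.5 to 94.8 for Adam10, 24.6 to 138 for Adamts1 and 27.6 to 75.7 for Adam15), so that their order is not settled. Adamts10 (25.8) and Mmp28 (25.7) followed with nearly equal means, then Adam9 (15.1), Adam17 (11.9), Adamts9 (10.3), Adamtsl2 (9.63), Mmp15 (8.63) and Adamtsl4 (6.72). Part of the exon bases of some of these genes lies under another gene on the opposite strand: 21.3% of Timp3 under Syn3, 20.6% of Adam15 under 4731419I09Rik, 12% of Mmp28 under 1700020L24Rik, 10.6% of Adamts8 under Gm29724 and 9.18% of Adamts9 under A730049H05Rik. Adam1a shares 63.7% of its exon bases with Gm42878 on its own strand, so its counts are uncertain whatever the strand setting. The strand setting of the counting is not given in the sources used here, so reads of the stretches on opposite strands cannot be told apart. The same holds for near-identical copies such as Mmp1a and Mmp1b or Adam6a and Adam6b, which were above background in 0 libraries.

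The first comparison asked how bECs respond to MCAo. The aggrecanase Adamts4 had the largest change of the 83 genes tested, and Adamts9, Adamts8, Timp1 and Mmp14 were also higher after MCAo, whereas Mmp15 was the one gene that was lower. Averaged over both genotypes (8 libraries against 8), edgeR's quasi-likelihood test called these 6 genes at an adjusted p under 0.1, which was 6 of 83, beside 1.23% of all 31085 genes tested. Of these, 5 were higher after MCAo (beside 0.933% of all genes) and 1 was lower (beside 0.299%). Within CTRL, 3 of the 83 were called (Adamts4, Adamts8 and Mmp15), beside 0.216% of all genes, and within YT-iKO also 3 (Adamts4, Adamts9 and Mmp15), beside 0.318%. The median log2 fold change of the 83 genes was 0.09 averaged over genotypes, near the 0.03 of all genes tested. With TMM factors, groups of 4 libraries did not overlap for 6 of the 83 genes in CTRL (Adamts4, Adamts8, Adamts9, Timp1, Mmp15 and Adam1a), beside 4.14% of all genes. In YT-iKO this held for 2 (Adamts4 and Mmp15), beside 1.28%. A gene given here as called or not called without a named setting is so by edgeR with all 16 libraries; limma-voom with quality weights called 55 of the 83 genes and 17018 of all genes averaged over genotypes, among them Adamts7, Adamts13, Adamts14, Adam15 and Adam17.

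**Figure D2:**
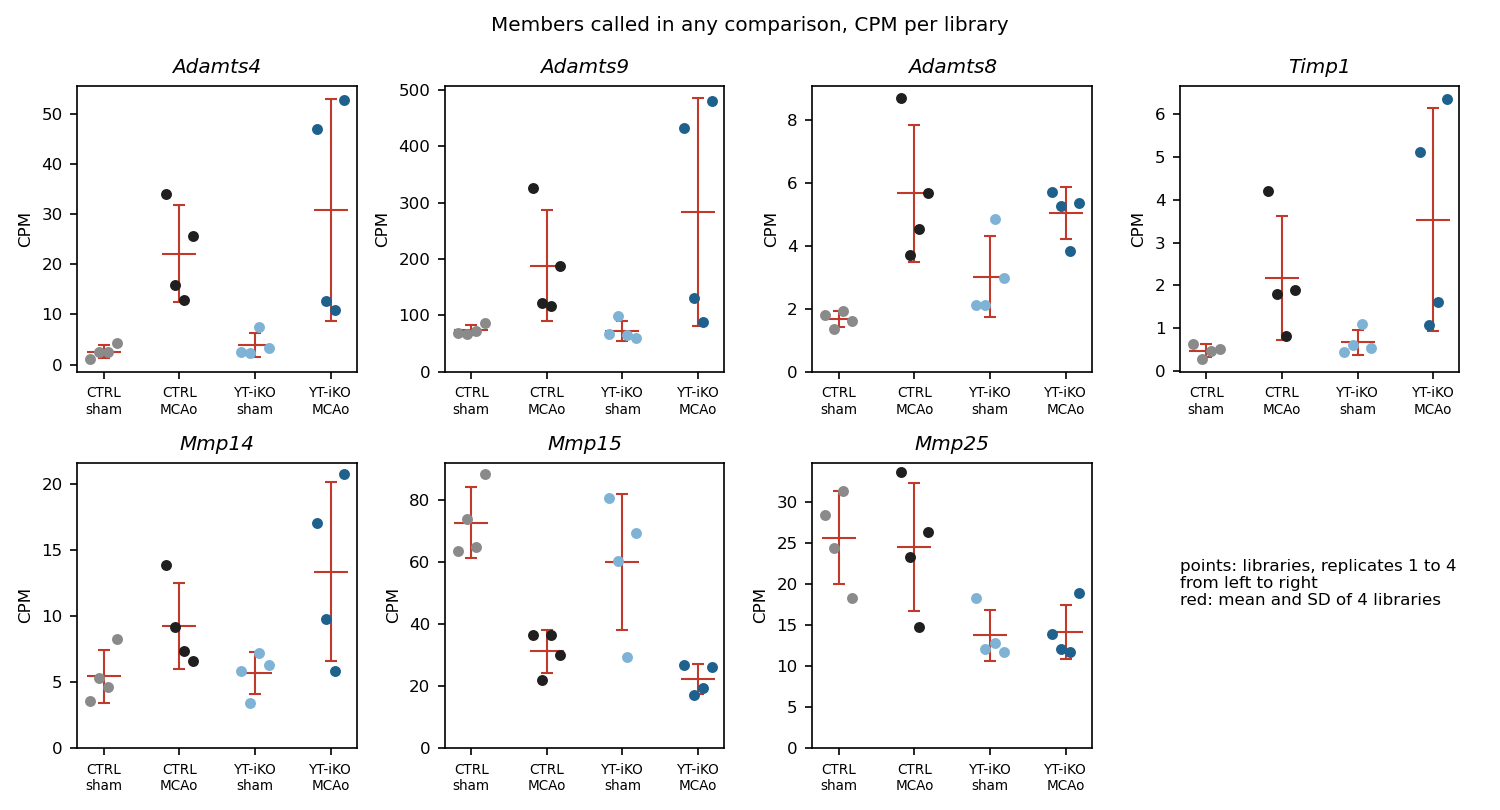
CPM in each library of the 7 genes called in any comparison, with replicates 1 to 4 from left to right in each group and the mean and SD of 4 libraries in red. Adamts4 and Mmp15 separate sham from MCAo in both genotypes, Mmp25 is lower in YT-iKO than in CTRL, and YT-iKO MCAo 1 and 4 lie far above YT-iKO MCAo 2 and 3 for Adamts4, Adamts9, Timp1 and Mmp14.

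ADAMTS proteases held 3 of the 6 called genes. Adamts4 (chr1:171250421-171260637 of GRCm38, plus strand, protein coding) cuts aggrecan, versican and brevican. It was 1.15, 2.51, 2.49 and 4.22 CPM after sham, then 34.0, 15.8, 12.9 and 25.7 after MCAo in CTRL (libraries 1 to 4), against 2.60, 2.36, 7.45 and 3.23 after sham and 47.0, 12.7, 10.9 and 52.7 after MCAo in YT-iKO. Every MCAo library lay above every sham library. The log2 fold change was 3.09 ± 0.51 in CTRL (adjusted p = 0.00744), 2.99 ± 0.50 in YT-iKO (0.00683) and 3.04 ± 0.36 averaged (3.6e-05), in edgeR's quasi-likelihood test. Adamts4 was called in these 3 comparisons with any 1 library left out, at adjusted p values up to 0.0574 in CTRL and 0.0709 in YT-iKO. Adamts4 had 18 to 65 counts in CTRL sham, where an even background at the receptor density would give 10.9 to 18.6, and 190 to 493 counts in CTRL MCAo, where it would give 9.82 to 22.7.

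Adamts9 (chr6:92772699-92943492, minus strand) also cuts versican and aggrecan and, unlike Adamts4, was far above background in every library. Its CPM was 68.6, 67.5, 71.8 and 86.2 after sham and 327, 121, 117 and 188 after MCAo in CTRL, against 66.4, 99, 64.5 and 59.6 after sham and 433, 132, 88.6 and 481 after MCAo in YT-iKO. With TMM factors the CTRL groups did not overlap, whereas YT-iKO MCAo 3 lay below the highest YT-iKO sham library. With factors from abundant genes the YT-iKO groups did not overlap either, at 59.8 to 91.7 CPM after sham and 109 to 380 after MCAo. Averaged over genotypes it rose by 1.66 ± 0.30 on the log2 scale (adjusted p = 0.0040). In YT-iKO the log2 fold change was 1.97 ± 0.42 (adjusted p = 0.0555), a call lost without YT-iKO sham 1 (0.226), sham 2 (0.123), sham 3 (0.115), sham 4 (0.317) or YT-iKO MCAo 1 (0.333), and with limma-voom and quality weights. In CTRL it was 1.36 ± 0.42 and not called (adjusted p = 0.534), but called with factors from abundant genes (0.0340), with DESeq2 (0.0606), without the 3 libraries of highest background (0.000534) and with limma-voom and quality weights.

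Adamts8 (chr9:30942562-30963838, plus strand), an aggrecanase with antiangiogenic thrombospondin repeats, was above background in only 5 libraries, all of them MCAo. It was 1.79, 1.37, 1.94 and 1.62 CPM after sham, then 8.70, 3.72, 4.54 and 5.67 after MCAo in CTRL, against 2.12, 2.14, 4.86 and 2.96 after sham and 5.72, 5.26, 3.82 and 5.36 after MCAo in YT-iKO. The CTRL groups were apart and the YT-iKO groups overlapped, through YT-iKO sham 3, the library of highest background. The log2 fold change was 1.25 ± 0.24 averaged (adjusted p = 0.00713), 1.75 ± 0.34 in CTRL (0.0355) and 0.74 ± 0.33 in YT-iKO, which edgeR did not call with all libraries. It was called without the 3 libraries of highest background (1.13 ± 0.33, adjusted p = 0.0832) and with limma-voom and quality weights. The call in CTRL was lost without CTRL sham 1 (adjusted p = 0.118), CTRL sham 2 (0.235), CTRL MCAo 1 (0.133) or CTRL MCAo 4 (0.129).

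The most abundant ADAMTS, Adamts1, an aggrecanase and versicanase that is also antiangiogenic, was not called with all libraries. It ranged from 131 to 267 CPM after sham and 173 to 393 after MCAo in CTRL, against 162 to 393 after sham and 224 to 734 after MCAo in YT-iKO, and its averaged log2 fold change was 0.56 ± 0.27 (adjusted p = 0.846). Without the 3 libraries of highest background it was called averaged over genotypes (0.74, adjusted p = 0.0111) and in YT-iKO (1.08, adjusted p = 0.0299). Adamts10, a binding partner of fibrillin microfibrils, was 241 ± 6.57 CPM after sham and 200 ± 51.6 after MCAo in CTRL, against 226 ± 80.5 and 185 ± 51.1 in YT-iKO, and was called lower averaged over genotypes only with factors from abundant genes (log2 fold change −0.26, adjusted p = 0.0900) and with limma-voom and quality weights. Adamts13, the protease of von Willebrand factor, was above background in 11 libraries at 2.93 ± 0.346 to 5.25 ± 3.39 CPM and was not called. The other ADAMTS genes above background (Adamts6, Adamts7 and Adamts14) were not called in any comparison.

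Of the TIMPs, Timp1 (chrX:20870166-20874735, plus strand), the inducible inhibitor, rose after MCAo. It was 0.638, 0.285, 0.466 and 0.520 CPM after sham, then 4.21, 1.79, 0.814 and 1.89 after MCAo in CTRL, against 0.434, 0.618, 1.10 and 0.527 after sham and 5.12, 1.07, 1.62 and 6.36 after MCAo in YT-iKO. All CTRL MCAo libraries were higher than all CTRL sham libraries, and YT-iKO MCAo 2 was marginally lower than YT-iKO sham 3. These are small numbers, 5 to 10 counts in CTRL sham and 12 to 61 in CTRL MCAo, where the receptor density predicted 2.01 to 3.43 and 1.81 to 4.19. The averaged log2 fold change was 2.29 ± 0.42 (adjusted p = 0.00484), and it was called with any 1 library left out, at adjusted p values up to 0.0200. The separate responses, 2.17 ± 0.60 in CTRL (adjusted p = 0.309) and 2.40 ± 0.58 in YT-iKO (0.120), were not called, except in CTRL without YT-iKO MCAo 4 (0.0831) and in YT-iKO without CTRL MCAo 3 (0.0977), YT-iKO sham 3 (0.0927), YT-iKO MCAo 2 (0.0258) or YT-iKO MCAo 3 (0.0496), and in both with DESeq2 (0.0300 and 0.00412), with factors from abundant genes (0.0803 and 0.0896), without the 3 libraries of highest background (0.0135 and 7.9e-04) and with limma-voom.

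Timp3, which is bound to matrix and also inhibits ADAM17 and ADAMTS enzymes, had the highest mean CPM of the 85 genes and was not called after MCAo. It was 426 to 554 CPM (median 531) after sham and 281 to 535 (400) after MCAo in CTRL, against 474 to 718 (517) after sham and 299.5 to 848 (590) after MCAo in YT-iKO. Timp2, which binds MMP2 and MMP14, was 14.3 ± 2.82, 15.5 ± 6.86, 12.6 ± 3.02 and 8.88 ± 2.20 CPM in the same order, and Timp4 3.85 ± 0.218, 4.05 ± 1.09, 3.73 ± 0.715 and 4.33 ± 1.47. Timp4 reached background in all 4 CTRL sham libraries but in only 2 libraries of each other group. On the scale of CPM per kilobase, Timp3 exceeded Timp2 in every library, and Timp2 (mean 3.29) exceeded Timp4 (0.677). The levels of Timp1 (1.93) overlapped those of both.

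Among membrane-type MMPs, Mmp15, which encodes MT2-MMP, fell after MCAo. Mmp15 (chr8:95352268-95375080, plus strand) was 63.6, 73.7, 64.8 and 88.5 CPM after sham, then 36.4, 22.0, 36.6 and 30.0 after MCAo in CTRL, against 80.8, 60.4, 29.5 and 69.2 after sham and 26.8, 17.2, 19.4 and 26.3 after MCAo in YT-iKO. Within each genotype every MCAo library was lower than every sham library, although with TMM factors YT-iKO sham 3 came close to the MCAo level. With factors from abundant genes YT-iKO sham 3 was 39.5 CPM, against 19.3 to 23.8 in YT-iKO MCAo. The log2 fold change was −1.32 ± 0.18 averaged (adjusted p = 3.7e-04), −1.22 ± 0.26 in CTRL (0.0669) and −1.42 ± 0.26 in YT-iKO (0.0182). The averaged call held with any 1 library left out, at adjusted p values up to 0.00189. In YT-iKO it was lost without YT-iKO sham 4 (0.114), and in CTRL without CTRL sham 1 (0.137), sham 2 (0.282), sham 3 (0.135) or sham 4 (0.179), CTRL MCAo 1 (0.133), MCAo 2 (0.298) or MCAo 4 (0.322), or YT-iKO sham 4 (0.123).

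Mmp14 (chr14:54431612-54445364, plus strand) encodes MT1-MMP, a collagenase of the cell surface that activates MMP2. It was 3.58, 5.36, 4.66 and 8.25 CPM after sham, then 13.9, 9.16, 7.33 and 6.61 after MCAo in CTRL, against 5.83, 3.43, 7.19 and 6.32 after sham and 17.1, 9.77, 5.83 and 20.8 after MCAo in YT-iKO. The groups overlapped in both genotypes. By edgeR with all libraries it was called only averaged over genotypes (log2 fold change 0.99 ± 0.25, adjusted p = 0.0643). That call was lost without CTRL sham 1 (0.161), sham 2 (0.160) or sham 3 (0.145), CTRL MCAo 1 (0.147) or 2 (0.121), YT-iKO sham 1 (0.111), 2 (0.150) or 4 (0.128), or YT-iKO MCAo 1 (0.163). In YT-iKO alone (1.23 ± 0.35, adjusted p = 0.325) it was called without YT-iKO MCAo 3 (0.0488), with DESeq2 (0.0667) and without the 3 libraries of highest background (0.0040), and in CTRL it was called with limma-voom and quality weights. Mmp24 was above background in 12 libraries and was not called, and Mmp16 and Mmp17 were above it in 0 and 2.

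Secreted MMPs were mostly at or near background, and none was called in any comparison. Mmp28 (epilysin) was the exception in level, at 110 ± 3.06 CPM after sham and 111 ± 33.0 after MCAo in CTRL, against 93.6 ± 15 after sham and 85 ± 24 after MCAo in YT-iKO. Mmp11 (stromelysin-3) followed at 4.53 ± 0.735 to 7.20 ± 2.15 CPM. The gelatinases Mmp2 and Mmp9, which digest type IV collagen and are the MMPs most often studied in stroke, were above background in 8 and 9 libraries. Mmp9 had 25 to 46 counts after sham and 12 to 56 after MCAo in CTRL, against 32 to 80 after sham and 2 to 80 after MCAo in YT-iKO. Its highest values, 80 and 80 counts, were in YT-iKO sham 3 and YT-iKO MCAo 2, where the receptor density predicted 23.1 and 23.3, and its lowest, 2 counts, in YT-iKO MCAo 4, where it predicted 2.38. Mmp2 was likewise lowest in YT-iKO MCAo 4 (4 counts, 2.27 predicted) and highest in YT-iKO MCAo 2 (69 counts, 22.2 predicted). The averaged log2 fold changes were 0.19 ± 0.38 for Mmp2 and 0.06 ± 0.43 for Mmp9. Mmp3, Mmp8, Mmp10 and Mmp13 were above background in 1, 4, 4 and 0 libraries, and Mmp12, a macrophage elastase, had 0 to 52 counts against 4.87 to 47.7 predicted. The neutrophil marker S100a8 was at most 1.7 CPM in any library, and the 7 neutrophil and monocyte markers together 1.12 to 11.5.

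ADAMs held no called gene. Adam10, the main sheddase of Notch receptors, was 301 ± 7.16 CPM after sham and 344 ± 110 after MCAo in CTRL, against 265 ± 68.2 after sham and 304 ± 111 after MCAo in YT-iKO. Adam15, which is found at endothelial junctions, was 278 ± 20.2, 238 ± 75.2, 333 ± 61.3 and 311 ± 128 CPM in the same order, and Adam17, which releases tumor necrosis factor, 93.9 ± 4.87, 86.8 ± 23.8, 83.3 ± 19.5 and 77.4 ± 19.4. The averaged log2 fold changes of these 3 were 0.19 ± 0.20, −0.16 ± 0.20 and −0.11 ± 0.16. Adam9 had a larger difference: 45.9 to 53.7 CPM after sham and 44.0 to 97.3 after MCAo in CTRL, against 37.8 to 57.6 after sham and 49.0 to 115 after MCAo in YT-iKO (averaged log2 fold change 0.60 ± 0.20, adjusted p = 0.282). It was called with DESeq2 (0.0714), with factors from abundant genes (8.4e-04), without the 3 libraries of highest background (3.8e-05) and without YT-iKO MCAo 2 (0.0613). Within CTRL and YT-iKO it was called with factors from abundant genes (0.0652 and 0.0165) and without those 3 libraries (0.0502 and 3.3e-04). The ADAMs without known protease activity that were expressed, Adam11 (11.6 CPM on average) and Adam22 (10.5), which take part in neuronal signaling, were not called, except Adam11 averaged over genotypes without the 3 libraries of highest background (log2 fold change 0.39, adjusted p = 0.0994). Of the 34 ADAMs 17 were above background in no library, among them testis genes such as Adam24, Adam25 and Adam34.

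Among ADAMTS-like proteins, Adamtsl2, which binds latent TGF-β-binding protein and fibrillin microfibrils, was 89.8, 72.2, 60.2 and 90.8 CPM after sham, then 66.6, 47.3, 40.1 and 46.6 after MCAo in CTRL, against 124, 149, 66.1 and 90.8 after sham and 72.8, 55.8, 68.6 and 90.7 after MCAo in YT-iKO. With TMM factors the groups overlapped in both genotypes. With factors from abundant genes YT-iKO was 88.3 to 138 CPM after sham and 63.9 to 84.4 after MCAo, which did not overlap. On that scale CTRL sham and CTRL MCAo overlapped only at 55.0 CPM. The averaged log2 fold change was −0.61 ± 0.17 (adjusted p = 0.141 in edgeR's quasi-likelihood test), just outside the threshold. Of 24 other settings 12 called it, among them DESeq2 (0.0178), factors from abundant genes (0.00397) and the fits without CTRL sham 3 (0.0662), CTRL MCAo 1 (0.0555), YT-iKO sham 3 (0.0130) or YT-iKO MCAo 4 (0.0376). It was called in YT-iKO alone with factors from abundant genes (0.0825), and within CTRL and YT-iKO without the 3 libraries of highest background (0.0501 and 0.0812). Adamtsl4, another microfibril protein, was 23.5 ± 4.88 to 31.9 ± 9.39 CPM over the groups and was not called.

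**Figure D3:**
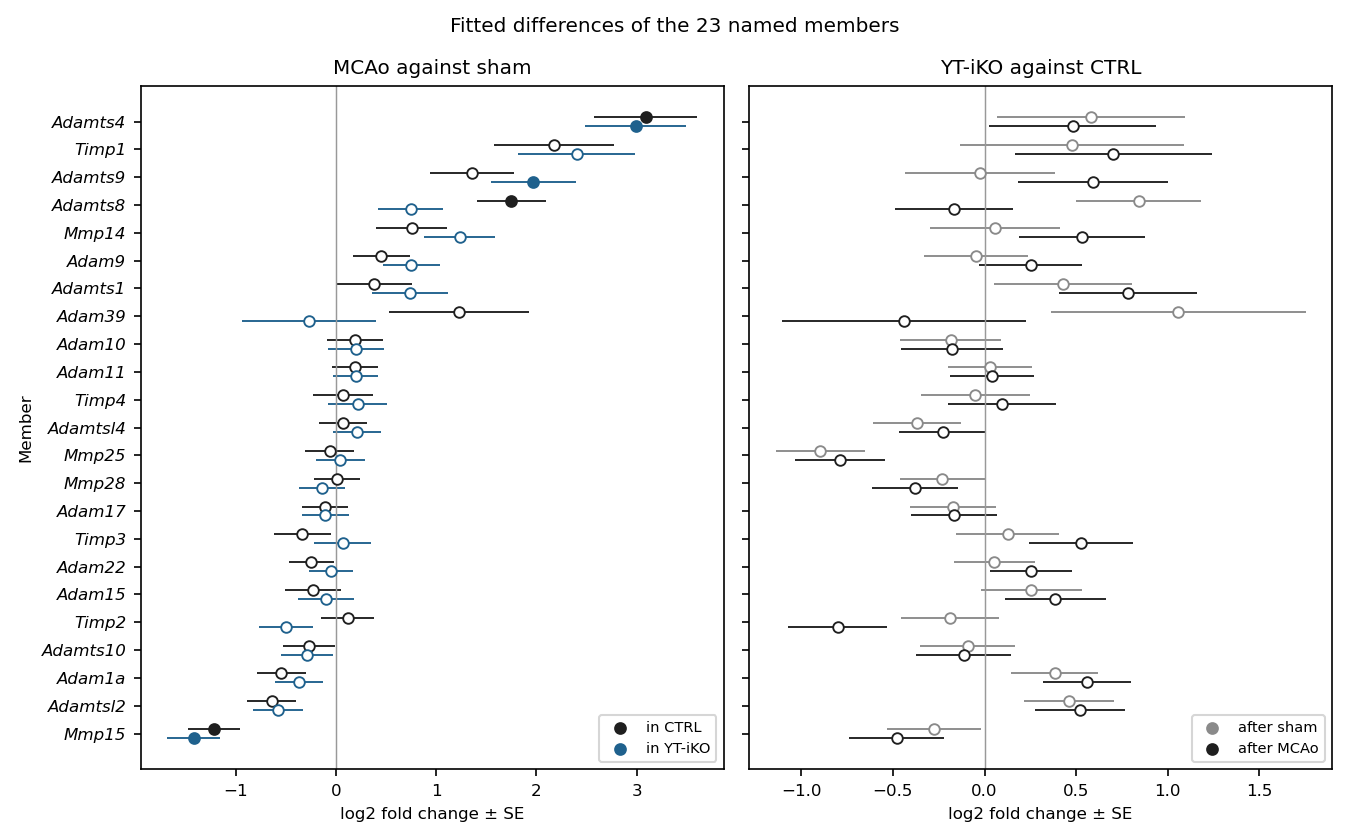
Log2 fold changes with SE of the 23 named genes, for MCAo against sham within each genotype (left) and for YT-iKO against CTRL after each operation (right). Filled points have an adjusted p under 0.1 in edgeR's quasi-likelihood test, open points do not. After MCAo Adamts4 and Timp1 lie highest and Mmp15 lowest in both genotypes, and Mmp25 lies at −0.90 and −0.79 in YT-iKO against CTRL.

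The genes that rose after MCAo were not equally high in all MCAo libraries. In YT-iKO MCAo 1 and 4, Adamts4, Adamts9, Timp1 and Mmp14 were higher than in any other library. In YT-iKO MCAo 2 and 3 Adamts4 (12.7 and 10.9 CPM) was lower than in any CTRL MCAo library with TMM factors. With factors from abundant genes, however, YT-iKO MCAo 2 (17.1 CPM) lay above CTRL MCAo 3 (16.2). The receptor density was 0.171 and 0.0419 CPM per kilobase in YT-iKO MCAo 1 and 4, and 0.413 and 0.362 in YT-iKO MCAo 2 and 3. In CTRL MCAo the same 4 genes were highest in replicate 1, whose density was lowest (0.141). The 6 pericyte markers together were 1451 and 1016 CPM in CTRL MCAo 1 and 2, 533 and 744 in CTRL MCAo 3 and 4, 1121, 473, 565 and 1085 in YT-iKO MCAo 1 to 4, and 525 to 910 in the sham libraries. These sums use TMM factors, which were 0.865, 1.40, 1.24 and 0.746 in YT-iKO MCAo 1 to 4. Factors from abundant genes were 0.984, 1.04, 1.00 and 1.02, so the gap between these 4 libraries is smaller on that scale. The 6 fibroblast markers together were higher in MCAo libraries: 19.7 to 22.9 CPM after sham and 31.6 to 39.2 after MCAo in CTRL, which did not overlap. In YT-iKO they were 20.7 to 23.5 CPM in sham 1, 2 and 4, 40.1 in sham 3 and 30.8 to 42.2 after MCAo. On this TMM scale only YT-iKO sham 3, the library of highest background, reached the MCAo range. The part of background reads, pericytes or fibroblasts in these results was not tested. Fewer cells of a type and less RNA per cell cannot be told apart in such libraries. Without the 3 libraries of highest background, Adamts4, Adamts8, Adamts9, Timp1, Mmp14 and Mmp15 remained called averaged over genotypes.

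**Figure D4:**
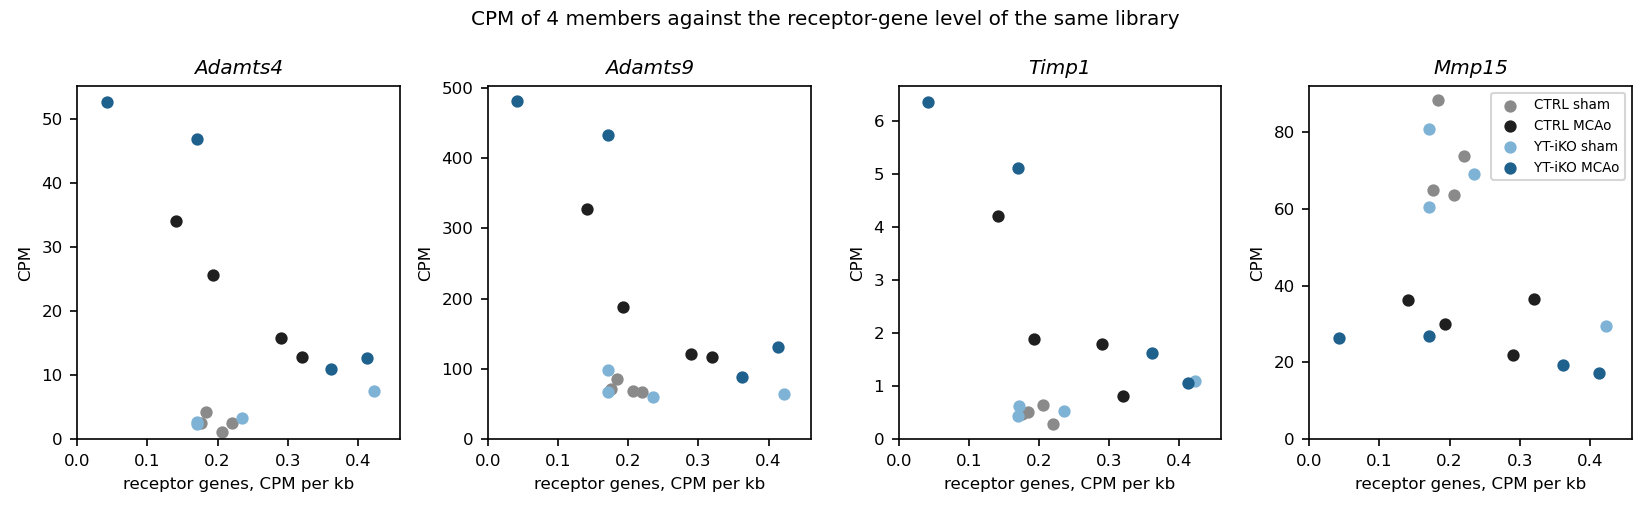
CPM of Adamts4, Adamts9, Timp1 and Mmp15 (vertical axes) against the level of the receptor genes in the same library (horizontal axes, CPM per kilobase), with 1 point per library and 4 libraries per group. Among MCAo libraries, those with the lowest receptor level, 0.0419 to 0.193, have the highest CPM (with TMM factors) of Adamts4, Adamts9 and Timp1. The sham libraries span a smaller range of these 3 genes.

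The second comparison asked whether loss of Yap and Taz changed these genes. Mmp25, which encodes the membrane-anchored MT6-MMP known from leukocytes, was lower in YT-iKO, and no other gene of the 83 was called. After sham 0 of 83 were called, beside 0.0965% of all genes tested, and after MCAo 0 of 83, beside 0.0708%. Unadjusted p values of edgeR's quasi-likelihood test were under 0.05 for 2 and 4 of the 83 and for 670 and 464 of all 31085 genes, and DESeq2 called 1 (Mmp25) and 0. Averaged over operations 1 of 83 was called, beside 0.28% of all genes. The median log2 fold change of the 83 genes was 0.25 after sham, 0.06 after MCAo and 0.21 averaged, where all genes tested had 0.11, 0.03 and 0.09. With TMM factors, groups did not overlap for 2 of 83 after sham (Mmp25 and Adamts8), beside 3.85% of all genes. After MCAo this held for 2 (Adamts6 and Adam1a), beside 0.981%.

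Mmp25 (chr17:23628311-23645277, minus strand) was above background in all 16 libraries. It was 28.5, 24.4, 31.4 and 18.3 CPM after sham, then 33.7, 23.3, 14.8 and 26.3 after MCAo in CTRL, against 18.3, 12.1, 12.9 and 11.7 after sham and 14.0, 12.1, 11.8 and 18.9 after MCAo in YT-iKO. With TMM factors CTRL sham and YT-iKO sham touched at 18.3 CPM without overlapping, and after MCAo the groups overlapped through CTRL MCAo 3. With factors from abundant genes Mmp25 after MCAo was 18.6 to 27.1 CPM in CTRL and 12.3 to 16.2 in YT-iKO, which did not overlap. The log2 fold change of YT-iKO against CTRL was −0.90 ± 0.24 after sham (adjusted p = 0.733), −0.79 ± 0.24 after MCAo (adjusted p = 1.00) and −0.84 ± 0.17 averaged (0.0399). Mmp25 was also called after sham with DESeq2 (0.0865), after MCAo with factors from abundant genes (0.0773), and after each operation with limma-voom and quality weights. The averaged call was lost without CTRL MCAo 4 (0.142), YT-iKO sham 4 (0.150) or YT-iKO MCAo 3 (0.112). The response of Mmp25 to MCAo was −0.01 ± 0.17. The 7 neutrophil and monocyte markers together were 2.97 to 11.5 CPM in CTRL and 1.12 to 11.1 in YT-iKO.

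The next smallest unadjusted p values of that comparison belonged to Adamtsl2 (log2 fold change 0.49 ± 0.17, adjusted p = 0.942) and Adam1a (0.47 ± 0.17, adjusted p = 0.984), which were not called, the latter with most of its exon bases shared with Gm42878. With factors from abundant genes Adamtsl2 (0.55, adjusted p = 0.0110) and Adam15 (0.38, adjusted p = 0.0152) were called higher in YT-iKO beside Mmp25, and limma-voom with quality weights also called Adamtsl2. On that scale Adam15 was 197 to 282 CPM in the CTRL libraries and 257 to 388 in the YT-iKO libraries, which overlap only slightly. Those factors also moved the median of all genes, from 0.09 to 0.21. Without the 3 libraries of highest background, 6 genes were called higher in YT-iKO than in CTRL after MCAo: Adamts1 (1.27), Adamts9 (1.19), Adamts4 (1.07), Timp3 (0.79), Adam15 (0.68) and Adam9 (0.62, all log2 fold changes). Averaged over operations Adamts1 (0.93), Adamts9 (0.59), Adamtsl2 (0.58), Adam15 (0.52) and Timp3 (0.49) were called higher too. All 3 libraries left out were YT-iKO, whereas CTRL MCAo 2 and 3, with receptor densities of 0.290 and 0.320 CPM per kilobase, stayed in. YT-iKO MCAo 1 and 4 had 0.171 and 0.0419, so the groups compared were unlike in background. In that fit a difference between genotypes was not tested apart from background. The result after MCAo rests on YT-iKO MCAo 1 and 4 alone, in which the pericyte markers were 1121 and 1085 CPM with TMM factors. Those factors were 0.865 and 0.746, where factors from abundant genes were 0.984 and 1.02, so these sums are lower on the latter scale. After MCAo 474 of 32176 genes tested were called in that fit (310 higher and 164 lower), where 22 were called with all libraries, and the median of all genes was −0.42. Averaged over operations 532 were called (286 higher and 246 lower), where 87 were with all libraries, and the median was −0.19.

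The share of all counts that fell on the 85 genes was 0.207% to 0.230% in the 8 CTRL libraries and 0.242% to 0.314% in the 8 YT-iKO libraries, so that the genotypes did not overlap in this sum, whether after sham or MCAo. Timp3 took 0.0345% to 0.0515% of counts in CTRL and 0.0419% to 0.0733% in YT-iKO, Adamts1 0.0121% to 0.0292% and 0.0218% to 0.0634%, and Adam15 0.0192% to 0.0286% and 0.0267% to 0.0397%. Timp3 and Adamts1 overlapped between genotypes over the 16 libraries. Adam15 overlapped only across operations: it was 0.0243% to 0.0286% in CTRL and 0.0305% to 0.0397% in YT-iKO after sham, and 0.0192% to 0.0249% and 0.0267% to 0.0347% after MCAo. The rest of the 85 genes overlapped, at 0.115% to 0.136% and 0.126% to 0.153%. With TMM factors Adam15 overlapped between genotypes after each operation. How many of all genes separate the genotypes in their share of counts was not counted. The sum is a description without a test and rests largely on genes of high abundance.

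**Figure D5:**
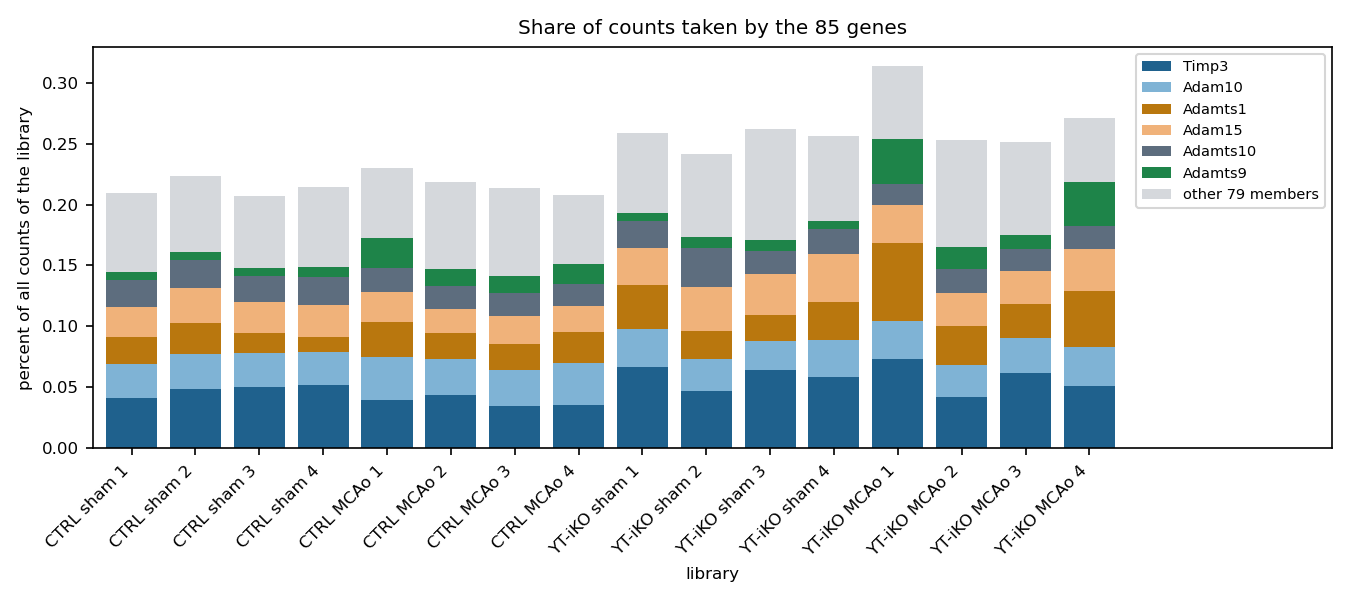
Share of each library's counts, in percent, that fell on the 85 genes, divided into 6 abundant genes and the other 79. The 8 YT-iKO libraries reach 0.242% to 0.314% and the 8 CTRL libraries 0.207% to 0.230%, and the Adamts9 part is widest in YT-iKO MCAo 1 and 4.

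The third comparison asked whether the response to MCAo differed between genotypes. None of the 83 genes was called, beside 0.0% of all genes tested, and DESeq2, limma-voom and each other setting also called 0 of them. An unadjusted p under 0.05 in edgeR's quasi-likelihood test was reached by 1 of the 83, Adamts8, with 1.75 in CTRL and 0.74 in YT-iKO (difference in log2 fold change −1.01 ± 0.47, unadjusted p = 0.043, adjusted p = 1.00). The response of Adamts8 in YT-iKO was 1.13 without the 3 libraries of highest background. Timp2 (−0.61 ± 0.38) and Adam39 (−1.50 ± 0.96), a gene above background in no library, came next. For the other genes called after MCAo averaged over genotypes the differences had wide errors: −0.10 ± 0.68 for Adamts4, 0.61 ± 0.58 for Adamts9, 0.23 ± 0.84 for Timp1, 0.48 ± 0.50 for Mmp14 and −0.20 ± 0.36 for Mmp15. No difference of that size was called, and what size this design could detect was not tested.

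Inhibitors, activators, trafficking partners and substrates of these enzymes were tested in the same way, and the substrates Vwf and Vcan were higher after MCAo averaged over genotypes. Vwf, the substrate of ADAMTS13, was 1207 ± 182, 4776 ± 1969, 789 ± 81.2 and 4013 ± 2249 CPM in CTRL sham, CTRL MCAo and the YT-iKO groups in the same order (averaged log2 fold change 2.17 ± 0.27, adjusted p = 7.2e-05), and Vcan, a substrate of Adamts1, Adamts4 and Adamts9, 7.93 ± 0.988, 11.5 ± 2.57, 9.92 ± 1.44 and 16.5 ± 4.60 CPM (0.63 ± 0.16, adjusted p = 0.0649). Vwf was also called within each genotype, but its call in CTRL (1.98 ± 0.38) was lost without CTRL sham 1 (0.138), CTRL sham 2 (0.235) or CTRL MCAo 4 (0.157). The call of Vcan was lost without CTRL sham 2 (0.184), CTRL sham 3 (0.158), CTRL MCAo 1 (0.135), CTRL MCAo 2 (0.145), CTRL MCAo 3 (0.103), YT-iKO sham 2 (0.153), YT-iKO sham 4 (0.172) or YT-iKO MCAo 1 (0.178). Reck, a membrane-anchored inhibitor of MMPs, was lower in YT-iKO averaged over operations, at 250 ± 29.6 and 192 ± 45.2 CPM in CTRL and 134 ± 26.3 and 128 ± 25.5 in YT-iKO after sham and MCAo (−0.75 ± 0.16, adjusted p = 0.0556), a call lost without CTRL sham 2 (0.164), CTRL MCAo 4 (0.267), YT-iKO sham 4 (0.217) or YT-iKO MCAo 3 (0.146). The study's own DESeq2 tests listed Reck as lower in YT-iKO after sham, and the MMP inducer Bsg as lower in YT-iKO after MCAo. Bsg was not called by edgeR with all libraries. The activators Furin, Plat and Plau and the tetraspanin and iRhom partners of ADAM10 and ADAM17 were not called in any comparison.

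The sequences just upstream of the transcription start are shown for the 5 called genes that the promoter table of RefSeq (GRCm38.p6) holds, and for Mmp13 as an example of the secreted MMPs at background. Each is the 250 bases before the start, 5′ to 3′ on the strand of the gene: chrX:20869916-20870165 (plus) for Timp1, chr6:92943535-92943784 (minus) for Adamts9, chr14:54431348-54431597 (plus) for Mmp14, chr8:95352046-95352295 (plus) for Mmp15, chr17:23645270-23645519 (minus) for Mmp25 and chr9:7272264-7272513 (plus) for Mmp13. Capitals mark matches to the core site of TEAD factors, the DNA-binding partners of YAP and TAZ (GGAATG), or of AP-1 (TGANTCA), searched on both strands.
Timp1: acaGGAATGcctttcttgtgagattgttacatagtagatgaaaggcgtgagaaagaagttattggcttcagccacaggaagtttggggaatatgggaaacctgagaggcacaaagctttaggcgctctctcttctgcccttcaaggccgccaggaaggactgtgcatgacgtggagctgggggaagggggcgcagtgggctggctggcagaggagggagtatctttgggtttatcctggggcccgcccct
Adamts9: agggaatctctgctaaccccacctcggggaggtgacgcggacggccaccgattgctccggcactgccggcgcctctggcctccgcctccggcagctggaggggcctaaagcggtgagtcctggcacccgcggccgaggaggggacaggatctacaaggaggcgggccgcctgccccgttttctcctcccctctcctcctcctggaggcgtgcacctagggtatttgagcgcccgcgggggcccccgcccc
Mmp14: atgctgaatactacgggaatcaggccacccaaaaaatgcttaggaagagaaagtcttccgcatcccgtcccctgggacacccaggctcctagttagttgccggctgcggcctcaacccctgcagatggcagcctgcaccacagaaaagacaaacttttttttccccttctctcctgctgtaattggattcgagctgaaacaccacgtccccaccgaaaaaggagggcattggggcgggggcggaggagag
Mmp15: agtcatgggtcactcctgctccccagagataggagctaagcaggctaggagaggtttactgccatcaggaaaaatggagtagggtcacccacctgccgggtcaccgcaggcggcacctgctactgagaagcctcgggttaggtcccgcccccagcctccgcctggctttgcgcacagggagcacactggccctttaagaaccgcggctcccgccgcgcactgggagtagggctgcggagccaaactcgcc
Mmp25: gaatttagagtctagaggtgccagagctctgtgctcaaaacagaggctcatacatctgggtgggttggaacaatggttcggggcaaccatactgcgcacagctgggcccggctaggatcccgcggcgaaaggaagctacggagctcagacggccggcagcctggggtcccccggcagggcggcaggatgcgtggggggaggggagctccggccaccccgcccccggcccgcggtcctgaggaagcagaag
Mmp13: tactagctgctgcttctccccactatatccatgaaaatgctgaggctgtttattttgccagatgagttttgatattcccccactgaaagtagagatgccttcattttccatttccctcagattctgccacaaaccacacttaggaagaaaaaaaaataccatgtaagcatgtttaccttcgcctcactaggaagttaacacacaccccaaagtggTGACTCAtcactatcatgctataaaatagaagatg

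Of these 6 windows GGAATG was found only at Timp1, 247 to 242 bases before the start, and TGANTCA only at Mmp13. The window of the partner Reck, lower in YT-iKO, holds GGAATG on the opposite strand, 210 to 205 bases before the start. Neither sequence was found at Adamts9, Mmp14, Mmp15 or Mmp25, which says only that these letters are not in these 250 bases. The table matched 54 of the 85 genes, with 59 windows. Adamts4 and Adamts8 are not in it. TGANTCA was present in 12 of the 59 windows (20.3%), beside 6.75% of all 32851 windows of the same length, and GGAATG in 3 (5.08%), beside 12.6%. The GC box GGGCGG, on either strand, was present in 24 (40.7%), beside 32.7%. The 12 windows with TGANTCA belonged to Mmp1a, Mmp1b, Mmp3, Mmp7, Mmp10, Mmp12, Mmp13 and Mmp20 on chromosome 9 and to Adam19, Adam20, Adam25 and Adam29. Of these genes only Adam19 was above background in 8 or more libraries, and none was called in any comparison. A match of letters is a description and not a bound site.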

How the data were processed

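Brain endothelial cells were sorted from pools of several mice, and cDNA was made with the SMART-Seq Ultra Low Input kit and sequenced as paired ends. Per the labels and the methods of the study, reads were aligned with STAR 2.7.8a to GRCm38 with GENCODE M12 genes, and the authors deposited raw counts per gene for 16 libraries; their own tests used DESeq2. The counting program and its strand setting are not given in the sources used here. Symbols, positions and exon lengths came from GENCODE M21 on GRCm38 for 36861 of 37003 gene identifiers, and 142 have no symbol.

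From the counts, edgeR 4.0.16 (R 4.3.3) was run with TMM factors on the 31085 genes that passed its filter (minimum count 10, minimum total 15), with the 4 groups in 1 model. The quasi-likelihood test gave 7 comparisons, with Benjamini-Hochberg adjustment over all genes tested, and a gene was called at an adjusted p under 0.1. Of the 85 genes 83 were tested; Adam26a and Mmp1b were too low. CPM values use the TMM factors. The p-values measure the spread between pools, and the steps were tested on simulated data. Named were all called genes, the TIMPs, genes averaging 10 CPM or more, those with the 3 smallest p in 2 further comparisons, and called genes of the partner list, of which some results are not reported here. The genes and lists were chosen with earlier results of these data known. Alternatives were other scaling factors (RLE, or TMM from 9132 abundant genes, mean 10 CPM or more), no filter, CPM above 1 in at least 4 libraries, a replicate block, DESeq2 1.42.0, limma-voom (limma 3.58.1) with quality weights, omission of single libraries and, chosen after seeing the data, the 3 libraries of highest background left out. For the background, the 99th percentile, all 16 libraries and CPM without exon length were tried.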

Additional observations from a re-analysis of the deposited data

Results flagged for a closer look

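Of 92 groups of 4 libraries (23 named genes in 4 groups), 1 held a value that stood apart from the other 3 by Dixon's criterion, which chance alone gives in about 1 in 20 groups. Adamts4 was 7.45 CPM in YT-iKO sham 3, where the other 3 YT-iKO sham libraries were 2.36 to 3.23 CPM. That library had the highest level of the receptor genes, 0.422 CPM per kilobase, and its value lay below every MCAo library.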

How the results depend on the processing

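Over 36 results on single genes, 863 alternative values kept their direction, 767 of them on the same side of the threshold, with 50 calls gained and 46 lost. DESeq2 gave no adjusted p for Timp1 averaged over genotypes. Genes of the families called after MCAo in CTRL (3), in YT-iKO (3) and averaged (6) became 6, 6 and 9 with factors from abundant genes, 5, 5 and 7 with DESeq2, 7, 9 and 10 without the 3 libraries of highest background (all genes: 599, 1397 and 2009, from 67, 99 and 383), and 22, 19 and 55 with limma-voom and quality weights, which called 7538, 5626 and 17018 of all 31085 genes in the same order (the cause was not tested). For YT-iKO against CTRL after sham (0), after MCAo (0) and averaged (1) the counts were 0, 1 and 3 with factors from abundant genes and 1, 0 and 1 with DESeq2. They were 1, 1 and 4 with limma-voom (all genes: 143, 257 and 746, from 30, 22 and 87) and 0, 6 and 6 without those 3 libraries (all genes: 91, 474 and 532). With 1 library left out they were 1 to 4 in CTRL, 1 to 5 in YT-iKO, 5 to 7 averaged over genotypes, and 0 to 1 for the genotypes averaged over operations, where all genes called were 26 to 162, 37 to 203, 246 to 578 and 46 to 171. Genes above background numbered 37, and 18 with the 99th percentile, 16 if all 16 libraries had to exceed it and 57 on CPM without exon length. Over all genes, factors from abundant genes raised the calls averaged over genotypes from 383 (290 higher, 93 lower) to 1598 (1038 and 560), in YT-iKO from 99 (86 and 13) to 534 (382 and 152), in CTRL from 67 to 554, averaged over operations from 87 (7 and 80) to 552 (182 and 370), after MCAo from 22 (1 and 21) to 181 (40 and 141) and after sham from 30 to 115, and moved the median of all genes after sham from 0.11 to 0.30, in CTRL from 0.07 to 0.21 and of the difference between genotypes from −0.02 to −0.16. DESeq2 called 766, 239, 203, 215, 78 and 65 genes in the same order. A replicate block called 7 of the family averaged over genotypes, where Adamtsl2 was added (adjusted p = 0.0635), and 3, 3, 0, 0 and 1 in CTRL, YT-iKO, after sham, after MCAo and averaged over operations, with 448, 119, 132, 40, 34 and 149 of all genes. The numbers were not read as pairs. Same-numbered libraries deviated together with a median correlation of 0.199, over 0.1 in 15 of 24 pairs, where 72 pairs of different number had a median of −0.115. Of 16 libraries 6 were closest to one of their own number. After MCAo, replicates 1 and 4 had lower receptor densities (0.141 and 0.193 in CTRL, 0.171 and 0.0419 in YT-iKO) than replicates 2 and 3 (0.290 and 0.320, 0.413 and 0.362). Libraries of high background limit what can be seen in genes of low count such as Timp1, Mmp2 and Mmp9, and a gene under the receptor limit may still be transcribed.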
